A study of Mus musculus with 3 samples.

Results

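The cells described here are bone-gene barcodes of the embryonic mouse palate, 112 of 8107 cell barcodes in 3 single-cell libraries. They were chosen by their own UMIs (unique molecular identifiers, each a captured RNA molecule). A member had at least 500 detected genes, a UMI of at least 2 of the 7 genes Sp7, Ibsp, Alpl, Ifitm5, Phex, Bglap and Spp1, and no UMI of Tyrobp, Ptprc, Pecam1 or Epcam, which mark myeloid cells, blood cells, endothelium and epithelium. The values of these 11 genes therefore chose the members and are given only as a description. Palatal tissue came from wild-type C57BL/6J embryos at E13.5, E14.5 or E15.5 (days of embryonic development), 3 embryos were pooled for each stage, and cells were released with TrypLE and fixed in methanol. By the labels no allele or agent separates the groups, which are named by stage, and the libraries also differ in their sex-linked genes. Each stage was sequenced as 1 library, so no replicate exists, no test between stages was possible, and every interval is a 95% interval of counting error only. Pairs of values give E14.5 first and E15.5 second.

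Osteoblasts form bone by secreting a collagen-rich matrix and then depositing mineral in it. In the palate they arise directly from mesenchyme, without a cartilage template, and the transcription factors Runx2 and then Sp7 (osterix) commit cells to the lineage. Alkaline phosphatase (Alpl) cleaves pyrophosphate, which blocks mineral growth, and bone sialoprotein (Ibsp), osteopontin (Spp1) and osteocalcin (Bglap) are matrix proteins of cells further along the path. Ifitm5 is a membrane protein of osteoblasts, and Phex is a peptidase of osteoblasts and osteocytes that takes part in phosphate balance.

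Runx2 binds the sequence TGTGGT, written ACCACA on the opposite strand, and the osteocalcin and osteopontin genes are textbook targets of it. For that reason the 250 bases before the start sites of 3 of the matrix genes are shown, in RefSeq sequence of build GRCm38.p6, read 5′ to 3′ on the strand of the gene. Capitals mark a match to TGTGGT or ACCACA. Bglap lies on the minus strand at chr3:88384467-88384716, Spp1 on the plus strand at chr5:104434861-104435110 (the upstream start of the gene) and Ibsp on the plus strand at chr5:104299037-104299286.
Bglap: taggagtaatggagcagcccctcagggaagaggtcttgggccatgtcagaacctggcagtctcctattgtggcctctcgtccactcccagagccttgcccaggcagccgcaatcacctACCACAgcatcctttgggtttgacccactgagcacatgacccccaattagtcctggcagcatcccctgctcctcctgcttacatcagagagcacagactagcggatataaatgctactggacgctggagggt
Spp1: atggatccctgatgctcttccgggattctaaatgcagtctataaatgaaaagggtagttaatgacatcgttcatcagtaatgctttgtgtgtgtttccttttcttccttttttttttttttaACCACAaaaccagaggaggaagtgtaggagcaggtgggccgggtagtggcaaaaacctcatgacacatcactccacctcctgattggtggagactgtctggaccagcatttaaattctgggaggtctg
Ibsp: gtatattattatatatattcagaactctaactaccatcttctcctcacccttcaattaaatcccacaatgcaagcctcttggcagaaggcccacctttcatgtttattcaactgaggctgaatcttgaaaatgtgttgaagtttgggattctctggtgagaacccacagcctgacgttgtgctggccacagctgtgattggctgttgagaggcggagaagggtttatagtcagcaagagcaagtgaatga
The match in Bglap begins 132 bases before the start and the match in Spp1 128 bases before it, while the Ibsp window holds none. The window of the second Spp1 start, at chr5:104435942-104436191, holds none either, nor do those of Ifitm5 and of both starts of Alpl, and that of Runx2 holds 1. Of all 32851 RefSeq windows of this length, 4614 (14.05%) hold a match on either strand, so a match alone is common. It describes letters and is no measured binding site. Of 9 genes looked up, 6 had an entry.

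The libraries held 4236, 2079 and 3113 barcodes in order of stage, with 11472663, 5293977 and 8313677 UMIs, and 3692, 1775 and 2640 barcodes had at least 500 genes. Members numbered 5 in the E13.5 library, or 0.135% of these barcodes (exact Clopper-Pearson interval 0.0440% to 0.316%). In the E14.5 library they were 40 (2.25%, 1.61% to 3.06%), and in the E15.5 library 67 (2.54%, 1.97% to 3.21%). The E13.5 interval lies below the others, which overlap. Members were deeper than the average barcode, with medians of 3906, 2727.5 and 4520 UMIs against 1987.5, 1893 and 1996.5 over all barcodes kept, and the rule passes deep barcodes more easily. After thinning every barcode to 1500 UMIs and leaving out shallower ones, 3 of 2350, 15 of 1093 and 21 of 1663 barcodes passed. Between pairs of libraries 3, 1 and 1 barcodes were shared, none of them a member in both. A doublet caller (scrublet) marked 0, 4 and 1 barcodes, too few for its threshold to have worked, so doublets were not removed. Leaving out the highest scores instead would drop 1, 1 and 0 members.

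Barcodes with an exclusion gene were looked at for the same bone genes. In the E14.5 library, 11 of 79 barcodes with a UMI of the endothelial gene Pecam1 had 2 or more rule genes, 13.9% (7.16% to 23.5%, median 3460 UMIs), against 2.90% (2.08% to 3.92%, median 1722 UMIs) of barcodes with none of the 4 exclusion genes. In the E15.5 library these shares were 1.88% (0.388% to 5.38%, median 3628 UMIs) and 3.26% (2.53% to 4.12%, median 1808 UMIs). Alpl alone had a UMI in 21.5% and 10.0% of Pecam1 barcodes, and in 12.8% and 16.3% of barcodes with none of the 4. The share passing the rule is thus below that of the deeper Pecam1 barcodes in the E14.5 library, and in the E15.5 library it is higher with intervals that overlap. A rate of stray RNA in endothelium was not estimated. Some of those Pecam1 barcodes of E14.5 held much bone RNA beside 1 to 3 Pecam1 UMIs. Among them was a barcode of 5335 UMIs with 22 of Ibsp, 3 of Dmp1 and 82 of Col1a1. Others passed on few UMIs, among them a barcode of 2475 UMIs with 1 of Sp7 and 1 of Alpl, the commonest combination in members. Whether these Pecam1 barcodes are bone cells, multiplets or other cells was not tested. A member with only stray UMIs of Alpl and Sp7 is not shown by them to be an osteoblast. The label is checked below by Col1a1, Sparc and Smpd3, which the rule did not use.

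**Figure D1:**
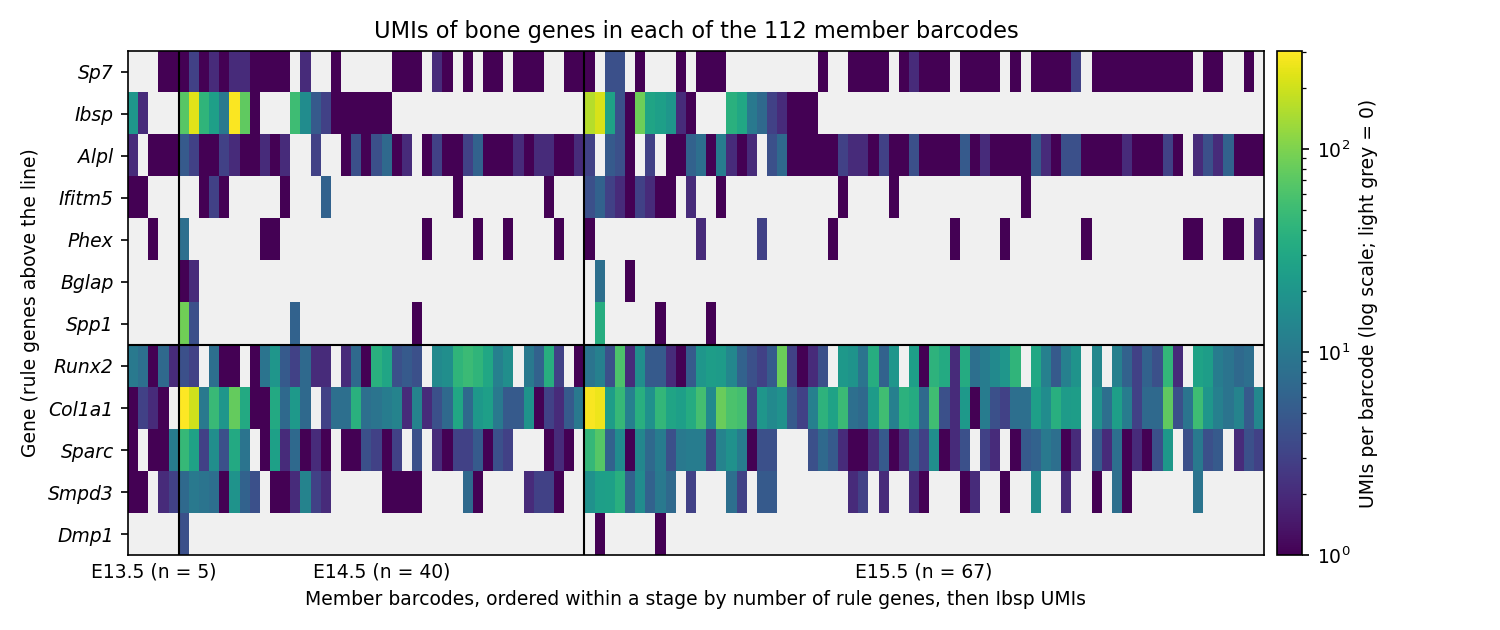
UMIs of the 7 rule genes (above the line) and of 5 other bone genes (below it) in each of the 112 members, with barcodes as columns, ordered within a stage by number of rule genes and then by Ibsp, and colour on a log scale. Ibsp reaches 292 UMIs in a barcode of E14.5 and 214 in a barcode of E15.5 while most members have none, and Runx2 and Col1a1 are found in nearly all.

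Most members passed with the smallest number of rule genes. Of the 40 of E14.5, 29 had 2 rule genes and 11 had 3 or more, and of the 67 of E15.5, 53 had 2 and 14 had 3 or more. The commonest combination was Sp7 with Alpl, in 12 and 32 members, ahead of Ibsp with Alpl (6 and 8) and Alpl with Phex (4 and 8). Just outside the threshold, 73, 204 and 350 barcodes in order of stage had exactly 1 rule gene, with medians of 3680, 2370 and 2622 UMIs.

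Sp7 had 33 UMIs in 26 members of E14.5 and 50 UMIs in 41 of E15.5, with at most 4 in a barcode. Alpl had 74 UMIs in 35 and 144 UMIs in 62, with at most 11. The UMIs of both genes were thus spread thinly over most members. Of the 5 members of E13.5, 4 had an Alpl UMI and 2 an Sp7 UMI.

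The matrix genes, in contrast, were concentrated in few members. Ibsp had 830 UMIs in 18 members of E14.5, of which 292 came from 1 barcode, and 663 UMIs in 20 of E15.5, of which 214 came from 1. In the E13.5 library it had 22 UMIs, 20 of them in 1 barcode. More than 50% of the members of each stage had no Ibsp UMI.

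Spp1 had 100 UMIs in 4 members of E14.5, 89 of them in 1 barcode, and 37 UMIs in 3 of E15.5, 35 of them in 1. Bglap had 3 UMIs in 2 and 9 UMIs in 2. Its near-identical copies Bglap2 (0 and 6 UMIs) and Bglap3 (0 and 1 UMIs) can share its reads, so its count is uncertain. Ifitm5 had 14 UMIs in 7 and 29 UMIs in 14 members, and Phex 14 UMIs in 7 and 16 UMIs in 12. These 4 genes were without a UMI in most members at this depth.

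Some barcodes held many UMIs of several matrix genes. A barcode of E14.5 with 2861 UMIs carried 69 of Ibsp, 89 of Spp1, 8 of Phex, 1 of Bglap, 304 of Col1a1 and 4 of Dmp1, a matrix gene of late osteoblasts and osteocytes. A barcode of E15.5 with 4450 UMIs carried 214 of Ibsp, 35 of Spp1, 8 of Bglap, 6 of Ifitm5 and 1 of Dmp1, with none of Alpl, Sp7 or Phex. Both were chosen after their values were seen, as the barcodes with the most Spp1. Sost (sclerostin, a Wnt antagonist made by osteocytes), Mepe and Phospho1 had 0 UMIs in the members of E14.5 and E15.5. With CPM as UMIs of a gene per 1000000 UMIs of the summed barcodes, 0 UMIs allows levels of up to 20.6 and 8.24 CPM. Of the signals to osteoclasts, Tnfsf11 (RANKL) had 3 UMIs in 3 members and 6 UMIs in 5, and its decoy receptor Tnfrsf11b had 2 UMIs and 1.

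To see what the members share beyond the rule genes, the UMIs of every gene were summed over members and over the other barcodes of the same library and compared on the log2 scale after adding 1 to each CPM value. Genes with a mean of at least 50 CPM in both libraries were compared, and a gene was counted when it differed at least 2-fold in the same direction in both. Of 3738 genes, 92 (2.46%) did so, 50 (1.34%) higher in members and 42 (1.12%) lower. In such sums, fewer expressing cells and less RNA per cell cannot be told apart.

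Smpd3, the neutral sphingomyelinase whose loss impairs bone mineralisation, ranked first by the smaller of its 2 ratios. It had 107 UMIs in 24 and 227 UMIs in 28 members, or 734 CPM against 53.1, and then 624 against 30.7 in other barcodes. The log2 ratios were 3.76 (3.45 to 4.12) and 4.30 (4.07 to 4.61). Sgms2, a sphingomyelin synthase with variants that cause skeletal fragility, had 3.22 (2.56 to 3.98) and 2.38 (1.86 to 3.00).

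Fat3, an atypical cadherin, had ratios of 2.42 and 2.78, and the parathyroid hormone receptor gene Pth1r 2.25 (1.70 to 2.82) and 2.49 (2.11 to 2.92). Runx2 had 2.28 (2.13 to 2.43) and 2.02 (1.91 to 2.12), with a UMI in 34 of 40 and 60 of 67 members. D030025E07Rik, annotated as a processed transcript, had 4.44 and 3.24, from 12 members in each library, and 0 UMIs in the barcodes of E14.5 that passed the rule after thinning. A ratio of sums can rest on few barcodes. For Tnn (tenascin N), 14 of 19 UMIs in the E14.5 library came from 1 member, and the ratio of 1.69 was 0.19 without the top barcode of each group, beside 1.95 in the E15.5 library.

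Of 8 osteoblast transcription factors compared, 3 passed 2-fold upward, Runx2 and Mef2c among them, and Sox11, a factor of immature cells, passed downward. The list medians were 0.49 and 0.92, beside 0.01 and 0.02 over all genes, and the median of E15.5 was -0.40 after thinning every barcode to 1500 UMIs. Sox11 had ratios of -1.20 and -1.63.

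All 8 bone and fibrillar collagens compared had ratios above 0 in both libraries, beside 1244 of all 3738 genes, with medians of 1.00 and 0.78, and 3 passed 2-fold. Col1a1, which encodes the main collagen chain of bone, had 7083 CPM against 2107, and then 5488 against 2332, ratios of 1.75 (1.66 to 1.84) and 1.23 (1.17 to 1.30). Col24a1, a fibrillar collagen of developing bone, had 1.81 and 1.43, and Col1a2 also passed. Of 13 genes of the non-collagenous matrix, Omd (osteomodulin), Cthrc1, Tnc and Tnn passed upward and none downward, with medians of 0.67 and 0.54, and -0.10 in the E15.5 library over genes of at least 200 CPM. Omd had ratios of 1.92 (1.09 to 2.74) and 1.42 (0.89 to 1.95). It had 0 UMIs in the 11 members of E14.5 with 3 or more rule genes, which allows up to 62.3 CPM, so no ratio can be given for them.

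Genes that process and export collagen differed by smaller amounts than the collagens, by their list medians. Of 19 compared, 17 had ratios above 0 in both libraries and P4ha2 and Fkbp10 passed 2-fold, with medians of 0.51 and 0.67. P4ha2, a subunit of the enzyme that hydroxylates collagen prolines, had ratios of 1.82 and 1.54. Fkbp10, a collagen chaperone mutated in brittle bone disease, had 1.27 and 1.23.

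Among 14 genes of the Fgf, Hedgehog, Pth and Igf pathways, Fgfr2 (1.92 and 1.28), a receptor gene mutated in craniofacial syndromes, Ptch1 and Pth1r passed 2-fold upward and none downward. With Alpl and Phex taken out of the rule, the Fgfr2 ratio of E14.5 was -0.020. Among 11 Bmp and Tgfb genes, the ligand gene Bmp6 was higher (1.82 and 1.12) and the receptor gene Bmpr1b lower, with -3.84 (-9.33 to -1.54) and -1.18 (-2.05 to -0.47) from 1 and 15 UMIs. After thinning the Bmp6 ratio of E14.5 was -0.96. None of the 10 Wnt receptors, ligands and antagonists compared passed 2-fold in both libraries, and their medians were 0.05 and 0.13. Tnfrsf19, a receptor gene listed both as a Wnt target and among the osteocyte genes, had ratios of 2.16 and 1.15.

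Markers of other cell types were mostly low in the members. Endothelial markers summed to 6.86 and 13.7 CPM against 150.3 and 131 in other barcodes, with Emcn, Cldn5, Tie1 and Plvap at 0 in the members of both stages. Myeloid markers summed to 41.1 and 8.24 CPM against 230.0 and 288, with C1qa, C1qb, C1qc and Lyz2 at 0 in both. The rule itself removes part of these types. Neuronal markers, which the rule did not use, summed to 151 and 203 CPM against 784 and 730.1, and Stmn2, Elavl4 and Gap43 passed 2-fold downward.

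Chondrocyte markers summed to 2153 and 2113 CPM against 1871 and 1020.1, with Sox6 past 2-fold upward and Matn1, Matn3, Col10a1 and Snorc at 0 in both. Erythroid genes, which include the haemoglobins, summed to 7323 and 3099.8 CPM against 9875 and 9149. Glial markers summed to 206 and 2.75 CPM against 124 and 109, from 30 UMIs and 1 UMI, with 0 and 7 of the 8 genes at 0. The part of these levels in the comparisons was not tested.

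A closer comparison set the members against barcodes with a Runx2 UMI, none of the rule genes and none of the exclusion genes. There were 367 and 561 of these, with medians of 1914 and 1968 UMIs. Runx2 chose these barcodes, so its own level is not compared here. Of 3667 genes, 40 (1.09%) passed 2-fold in both libraries, 17 (0.464%) higher in members and 23 (0.627%) lower. This count depends on the rule and on depth. It was 7 with barcodes of the exclusion genes kept in, 163 with at least 3 rule genes required and 254 after thinning.

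**Figure D2:**
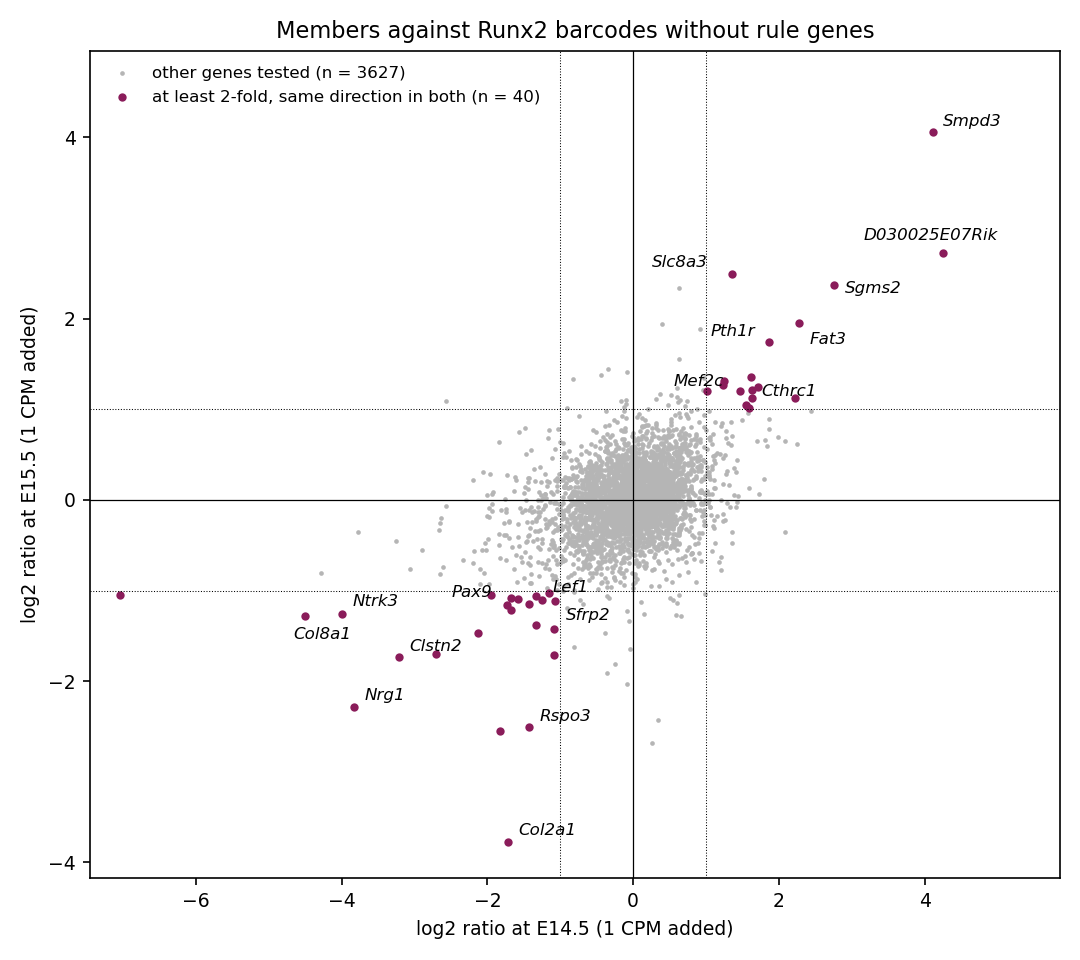
Log2 ratio of summed CPM, members over Runx2 barcodes without rule genes, in the E14.5 library (horizontal) and the E15.5 library (vertical), with 1 point per gene for the 3667 genes compared and dotted lines at 2-fold. The 40 coloured genes pass 2-fold in the same direction in both libraries, and Smpd3 stands apart at 4.11 and 4.06.

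Smpd3 had ratios of 4.11 (3.59 to 4.72) and 4.06 (3.66 to 4.55). Among barcodes thinned to 1500 UMIs, it had a UMI in 38.7% (21.9% to 57.8%) and 31.6% (19.9% to 45.2%) of the 31 and 57 members kept. The thinned shares were 3.90% and 3.69% in Runx2 barcodes and 6.36% and 2.91% in barcodes with a UMI of Tyrobp, Ptprc or Pecam1 and none of Epcam, taken as the nearest to a background of blood and endothelium. That set is not of those cells alone, since after thinning 44.5% and 55.2% of it had a Col1a1 UMI and 24.5% and 21.5% a Runx2 UMI. Without thinning they were 60.0% and 41.8% in members, 5.45% and 5.53% in Runx2 barcodes and 8.16% and 4.96% in that background, whose median depths were 2535 and 2622 UMIs. For Smpd3, the intervals of Runx2 barcodes and of that background overlap, and those of members lie above both in these libraries. In the E13.5 library the background itself had a thinned share of 26.6% (16.3% to 39.1%), above the 9.39% (5.57% to 14.6%) of Runx2 barcodes, so a low share in those cell types does not hold at each stage.

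Sgms2 had ratios of 2.76 and 2.37, and Fat3 2.28 (1.98 to 2.59) and 1.95 (1.74 to 2.16). Thinned shares with a Fat3 UMI were 64.5% and 43.9% in members, 19.5% and 15.3% in Runx2 barcodes and 10.0% and 5.23% in the background, and unthinned 75.0% and 65.7%, 20.4% and 19.8% and 14.97% and 11.6%. Fat3 thus stood above both sets in each library. Pth1r had ratios of 1.87 (1.20 to 2.54) and 1.74 (1.27 to 2.25). Its thinned shares were 16.1% (5.45% to 33.7%) and 21.1% (11.4% to 33.9%) in members against 8.66% and 7.95% in Runx2 barcodes and 2.73% and 3.49% in the background, and unthinned 40.0% and 43.3%, 11.99% and 13.2% and 8.16% and 8.26%. In the E14.5 library the thinned Pth1r interval of the members takes in the share of the Runx2 barcodes and overlaps the interval of the background (0.566% to 7.76%).

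Cthrc1, a secreted protein of the matrix, had ratios of 1.62 and 1.35, P4ha2 1.24 and 1.32 and Slc8a3, a sodium-calcium exchanger, 1.35 and 2.50. After thinning the Cthrc1 ratio of E15.5 was -0.90. Of 9 osteoblast transcription factors, Mef2c, known from muscle and bone, passed 2-fold upward and Lef1 downward. Mef2c had ratios of 1.47 (1.22 to 1.72) and 1.21 (0.98 to 1.44). The thinned shares with a Mef2c UMI were 74.2% (55.4% to 88.1%) and 52.6% (39.0% to 66.0%) in members, 42.0% and 27.0% in Runx2 barcodes and 51.8% (42.1% to 61.4%) and 42.4% (35.0% to 50.2%) in the background, and unthinned 85.0% and 68.7%, 51.2% and 37.1% and 63.9% and 55.0%. The intervals of members and of that background overlap for Mef2c in both libraries.

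Col1a1 had ratios of 1.22 (1.12 to 1.33) and 0.85 (0.78 to 0.93), Omd 1.58 and 0.96 and Fgfr2 1.50 and 0.88, none past 2-fold in both libraries, and Fgfr2 of E14.5 had -0.33 with Alpl and Phex out of the rule. No collagen of the 8 compared passed, with medians of 0.45 and 0.20 beside 0.01 and 0.01 over all genes. Of 20 genes of collagen processing, 16 had ratios above 0 in both libraries, beside 1138 of all 3667 genes, with medians of 0.32 and 0.39, and P4ha2 passed.

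In the Wnt pathway secreted ligands act through Lef1 and related factors. Of 6 Wnt target genes compared, Lef1, Rspo3 and Lgr5 passed 2-fold downward and none upward, while the other 3 had ratios above 0 in both libraries, so the medians of -0.46 and -0.33 lie between genes that point both ways. Lef1 had ratios of -1.25 (-2.94 to 0.01) and -1.11 (-2.04 to -0.33) from 5 and 14 UMIs. Rspo3, which encodes a secreted amplifier of Wnt signals, had -1.43 (-2.60 to -0.48) and -2.51 (-3.79 to -1.55) from 9 and 8 UMIs. Lgr5, a receptor for that amplifier, had 0 UMIs in members of E14.5. These are small counts, and the Lef1 interval of E14.5 includes 0. In the members of E14.5 with 3 or more rule genes, Lef1 had 83.1 CPM (22.6 to 213) and Rspo3 166 (71.7 to 327), beside 83.0 and 168 in Runx2 barcodes, so the lower sums of that library came from members with 2 rule genes. Of 12 receptors, ligands and antagonists, the secreted antagonist Sfrp2 passed downward, with 357 CPM against 749, and then 313 against 680.3 and ratios of -1.07 (-1.51 to -0.66) and -1.12 (-1.41 to -0.84). Its relative Sfrp1 had -1.60 and -0.90, and the list medians were -0.36 and -0.12.

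Pax9, a transcription factor of palate and tooth mesenchyme, had 34.3 CPM against 116, and then 74.2 against 167, ratios of -1.72 (-3.41 to -0.48) and -1.16 (-1.81 to -0.60). With Alpl and Phex out of the rule it had 0.033 in the E14.5 library. Col2a1, the collagen of cartilage, had -1.72 (-2.70 to -0.90) and -3.77 (-5.78 to -2.51) from 12 and 4 UMIs in members, and 0.045 in the E14.5 library after thinning. Nrg1, a growth factor gene, had -3.83 (-6.98 to -2.05) and -2.28 (-2.89 to -1.76) from 2 and 29 UMIs. With barcodes of the exclusion genes kept in, the Nrg1 ratio of E14.5 was 0.48. Clstn2 (-3.21 and -1.73) and Cntn6 (-2.13 and -1.47), cell-surface proteins best known from neurons, were lower too. Col8a1, a short-chain collagen, had -4.50 (-6.84 to -3.00) and -1.28 (-1.75 to -0.85) from 3 and 47 UMIs.

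**Figure D3:**
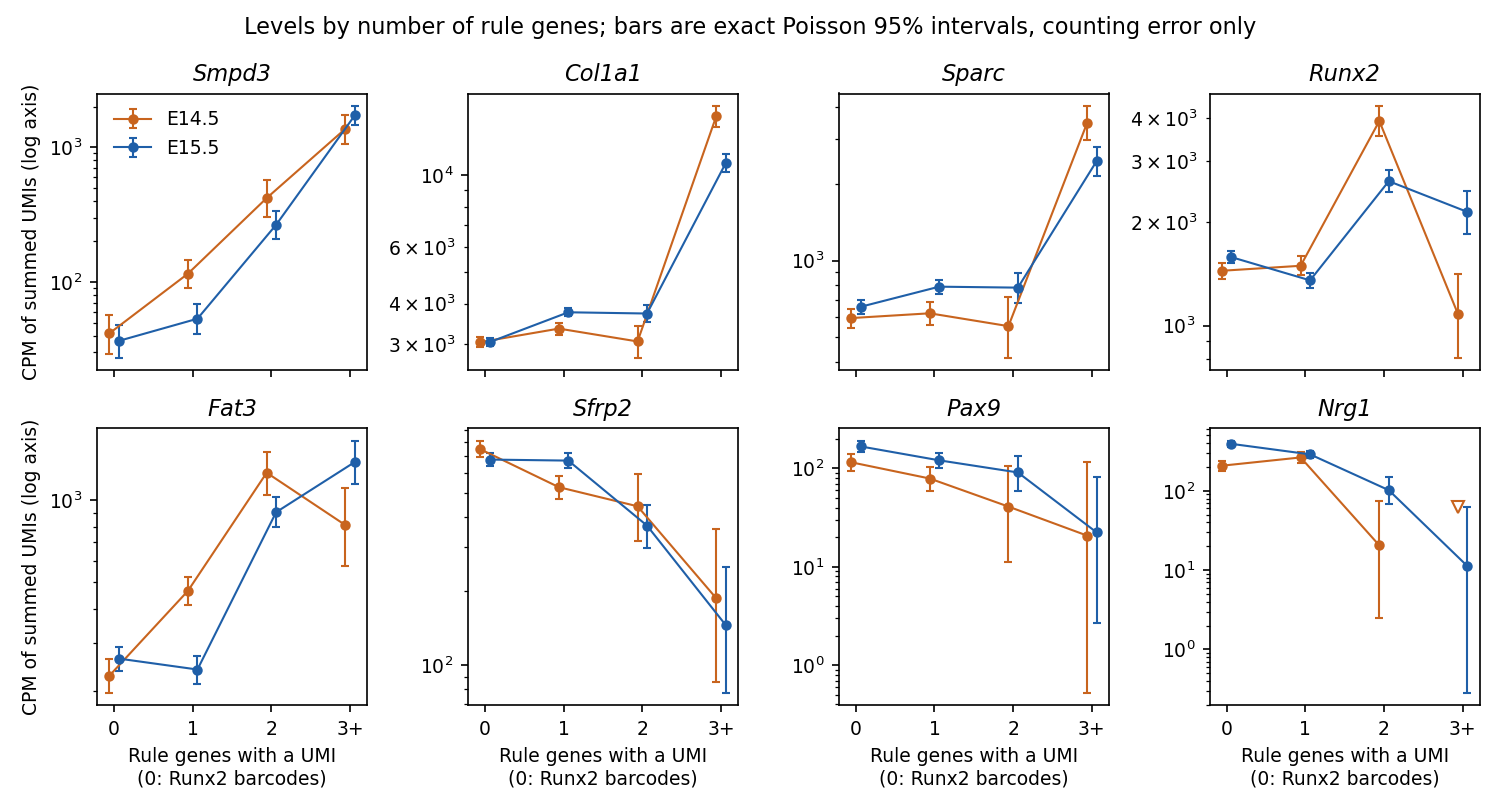
Level in CPM (log axes) of 8 genes that the rule did not use, in barcodes with 0 rule genes but a Runx2 UMI, with 1, with 2 and with 3 or more, in the E14.5 and E15.5 libraries. Bars are exact Poisson intervals, an open triangle is the limit of 3 counts where no UMI was counted, and the sums over members with 3 or more rule genes are the highest for Smpd3 (1371 and 1725 CPM), Col1a1 and Sparc.

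Levels were then followed across the threshold of the rule, from Runx2 barcodes with 0 rule genes through barcodes with 1 to members with 2 and with 3 or more. In that order Smpd3 had 41.5, 115, 419.7 and 1371 CPM in the E14.5 library and 36.5, 53.4, 266 and 1725 in the E15.5 library. Col1a1 had 3036, 3344, 3051 and 15264 CPM and then 3036, 3758, 3725 and 10912, and Sparc (osteonectin), an abundant glycoprotein of bone matrix, had 595, 621, 553 and 3468 and then 658, 789.6, 783 and 2453. The summed level of Smpd3 was higher at each step beyond counting error, except from 36.5 (27.4 to 47.8) to 53.4 (41.1 to 68.1) CPM in the E15.5 library, where the intervals overlap, while those of Col1a1 and Sparc stood apart with 3 or more rule genes, where Col1a1 had 15264 (14181 to 16409) and 10912 (10237 to 11619) CPM. Members with 2 rule genes, 29 of 40 and 53 of 67, had 3051 (2714 to 3417) and 3725 (3500.1 to 3960.3) CPM, against 3036 (2923 to 3152) and 3036 (2947 to 3127) in Runx2 barcodes.

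For Col1a1 the sums of the highest class rest on few barcodes. Of the 735 Col1a1 UMIs of the 11 members of E14.5 with 3 or more rule genes, 505 came from 2 barcodes, and the others had 5872 CPM. Of 974 in the 14 of E15.5, 553 came from 2 barcodes, and the others had 5224 CPM. Sparc had 78 of 167 and 112 of 219 UMIs of this class in 2 barcodes, and 2070 and 1328 CPM in the others. Smpd3 was less concentrated, with 29 of 66 and 63 of 154 UMIs in 2 barcodes. The others had 931 and 1272 CPM, still above members with 2 rule genes. Of those with 2, 15 of 29 and 35 of 53 had no Smpd3 UMI, a median of 0 CPM in each library. Without the 2 barcodes with most Smpd3, their sums were 239 and 181 CPM. By barcode, Col1a1 ran from 340.5 to 106257 CPM in the E14.5 members with 3 or more rule genes, with a median of 6920. In those of E15.5 it ran from 2303 to 68166, with a median of 6722. In members with 2 rule genes it ran from 0 to 14667 CPM (median 2565) and from 0 to 22376 (median 2976). The classes thus overlap, and the members are called here by the rule. The highest class of E14.5 also divides by Xist, the RNA that coats the inactive X chromosome of females. Its 7 members without an Xist UMI had Col1a1 at 27993 CPM (25949 to 30155) and Sparc at 5566 (4676 to 6576), and its 4 members with one had 1755 (1260 to 2381) and 1241 (831 to 1783). Smpd3 had 2420 (1847 to 3115) CPM in the 7 and 257 (94.3 to 559) in the 4. In E14.5 members with 2 rule genes it had 499.5 (323 to 737) without Xist and 336 (192 to 545) with it. The last step of Smpd3 in that library is thus seen in members without Xist and not in those with it. In the E15.5 library the 3 without and 11 with Xist had Col1a1 at 7138 (5377 to 9291) and 11268 (10552 to 12021) CPM.

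Runx2 had 3931 (3548 to 4345) CPM in members with 2 rule genes and 1079.9 (807 to 1416) in those with 3 or more in the E14.5 library, and 2629 (2441 to 2828) and 2139.8 (1847 to 2466) in the E15.5 library. Fat3 had 1259 (1046 to 1502) and 810.0 (576 to 1107) CPM in the former, with intervals that overlap, and 903 (794 to 1023) and 1378 (1145 to 1644) in the latter. Sfrp2 had 749 (694 to 808), 526 (471 to 586), 440.2 (319 to 593) and 187 (85.5 to 355) CPM in the E14.5 library, where the intervals of barcodes with 1 and with 2 rule genes overlap, as do those with 2 and with 3 or more. In the E15.5 library it had 680.3 (638 to 724), 674 (628 to 722), 368 (299.5 to 447) and 146 (77.5 to 249) CPM, with no difference between 0 and 1 beyond counting error. In members with 3 or more rule genes, Pax9 had 1 and 2 UMIs, 20.8 (0.53 to 116) and 22.4 (2.71 to 80.9) CPM, against 116 (94.3 to 140.1) and 167 (147 to 189.9) in Runx2 barcodes, and the intervals of E14.5 overlap. Nrg1 had 0 UMIs, which allows up to 62.3 CPM, and 1 UMI, 11.2 CPM (0.28 to 62.4), against 208 (179 to 239.7) and 391 (359.9 to 425).

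The members were also divided by the matrix genes. Later members, with a UMI of Ibsp, Bglap or Ifitm5, numbered 21 and 24, and earlier members, with none of these, 19 and 43. Median depths were 2937 against 2585 UMIs, and 4862 against 4520. Of 3376 genes, 98 (2.9%) differed at least 2-fold in the same direction in both libraries, 47 (1.39%) higher in later members and 51 (1.51%) lower. Since the groups were made from the members' own counts, these ratios are a description.

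Smpd3 had 1305 CPM against 232, and then 1192 against 239.5 in earlier members, ratios of 2.49 (1.75 to 3.31) and 2.31 (1.86 to 2.79). Some collagen genes were higher along with it. Col1a1 had 12446 CPM against 2371, and then 7929 against 3837, ratios of 2.39 (2.16 to 2.63) and 1.05 (0.92 to 1.18), Col1a2 had ratios of 1.65 and 1.10 and Col24a1 1.35 and 2.32. These 3 of 8 collagens passed 2-fold, 5 had ratios above 0 in both libraries, beside 803 of all 3376 genes, and the list medians were 0.89 and 0.61 beside -0.11 and -0.05 over all genes. Col12a1, a collagen on the surface of fibrils, was lower in later members, with -0.96 (-1.60 to -0.35) and -0.64 (-1.08 to -0.22), and Col3a1, a fibrillar collagen of soft tissue, had 0.00 (-0.47 to 0.47) and -0.33 (-0.62 to -0.05). Sparc had 1.74 (1.30 to 2.21) and 1.07 (0.79 to 1.36).

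The division also moves with Xist, which had a UMI in 4 of 21 later and 11 of 19 earlier members of E14.5, a ratio of -1.64, and in 19 of 24 and 38 of 43 of E15.5, a ratio of -0.39. Among E14.5 members with Xist, Col1a1 had 1397 CPM (875 to 2115) in the 4 later and 2136 (1768 to 2558) in the 11 earlier members, and among those without it 15763 (14706 to 16874) in 17 and 2950 (2282 to 3753) in 8. Among E15.5 members with Xist it had 8097 (7623 to 8594) and 3874 (3610 to 4152). Smpd3 had 571 (261 to 1085) and 235 (125 to 402) CPM in later and earlier members with Xist of E14.5, and 1180 (1003 to 1379) and 242 (180 to 320) in those of E15.5. The higher Col1a1 of later members of E14.5 is thus seen in those without Xist and not in the 4 with it, and there the matrix genes cannot be told apart from the sex or embryo.

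Creb3l1 (OASIS), a membrane-bound factor that drives collagen secretion in osteoblasts, had 2.90 (0.03 to 8.49) and 1.64 (0.18 to 3.36) from 7 and 13 UMIs in later members. Timp1, an inhibitor of matrix proteases, had 3.26 (0.50 to 8.81) and 2.60 (0.82 to 5.13), and Efemp2, a protein of elastic fibres, 3.67 (1.01 to 9.19) and 1.54 (0.26 to 3.00). Each of these 3 had 1 UMI in earlier members of E14.5, and the lower bounds run from 0.03 to 1.01. Gm42884, annotated as antisense, had its UMIs in 1 and 2 later members. Strand use in the counting is not stated, so its reads and those of a gene on the opposite strand cannot be told apart.

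Cd44, a hyaluronan receptor, was lower in later members, with -3.63 (-9.12 to -1.02) and -1.61 (-3.05 to -0.42) from 1 and 7 UMIs. Sema3e, a guidance cue for vessels, had -2.70 (-4.69 to -1.22) and -1.74 (-3.17 to -0.57), and Chrdl1, a Bmp antagonist, -1.59 (-4.92 to 0.77) and -1.98 (-4.01 to -0.48). All of these had few UMIs in later members. Fgfr2 had -0.97 and -0.91 and Igfbp5, which binds insulin-like growth factors, -1.20 and -0.63, without passing 2-fold in both libraries. Closer to 0 lay Runx2, at -0.16 (-0.44 to 0.12) and -0.40 (-0.60 to -0.20), where the latter was 0.14 after thinning, and Pth1r, at 0.01 (-1.10 to 1.10) and 0.14 (-0.61 to 0.87).

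Between the stages, members were compared over 4141 genes with a mean of at least 50 CPM. In all, 490 (11.8%) differed at least 2-fold, 260 (6.28%) higher at E15.5 and 230 (5.55%) lower, and in 363 (8.77%) of the genes the interval also left out 0. Higher genes made up 53.1% of the 490, and 63.5% of 477 when the sums were scaled by TMM factors. The sums hold 145835 and 363900 UMIs, so 1 UMI is 6.86 and 2.75 CPM.

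Runx2, Smpd3, Col1a1, Col1a2, Pth1r and Mef2c differed by less than 2-fold, while the lineage genes Dlx5, Ibsp, Spp1 and Phex, given further on, lay past it downward. Runx2 had 2989.7 and 2509 CPM, a log2 change of -0.25 (-0.42 to -0.08). Smpd3 had 734 and 624 CPM, a change of -0.23 (-0.57 to 0.11). The change was -0.37 (-0.48 to -0.26) for Col1a1, -0.16 (-0.29 to -0.02) for Col1a2 and -0.23 (-0.86 to 0.42) for Pth1r. Mef2c, at 1289 and 695 CPM, had the largest of these changes, -0.89 (-1.17 to -0.61). With at least 3 rule genes required, Runx2 had 0.99 and Mef2c 0.36, so their signs belong to the rule as given. With barcodes of the exclusion genes kept in, Runx2 had 0.18, Col1a1 0.074 and Col1a2 0.045.

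Of 11 osteoblast transcription factors compared, the homeobox gene Dlx5 passed 2-fold, with -1.18 (-2.45 to 0.06) from 12 and 13 UMIs. None of the 9 collagens passed, with a median of -0.17 beside -0.02 over all genes. Of 24 genes of collagen processing, P3h4 (-1.03, -2.39 to 0.31) and Adamts3 (-1.09, -1.94 to -0.25), which act on procollagen, passed downward, and the median was -0.14. Without the top barcode of each stage, Adamts3 had -0.63. Of 14 non-collagenous matrix genes, decorin (Dcn), a small proteoglycan, and Mgp, an inhibitor of calcification, passed upward. Dcn had 4 UMIs in 4 members and 51 in 18, a change of 2.31 (0.91 to 4.28), and Mgp changed by 1.28 (0.21 to 2.59).

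The rule genes are a description only. Ibsp had 5691 and 1822 CPM, a change of -1.64 (-1.79 to -1.49), and Spp1 686 and 102, a change of -2.74 (-3.34 to -2.20). These intervals do not cover the spread between barcodes, which is wide in the plot of UMIs by member. Sp7 changed by -0.72 (-1.38 to -0.04), Alpl by -0.36 (-0.77 to 0.07), Ifitm5 by -0.27 (-1.24 to 0.77) and Phex by -1.11 (-2.26 to 0.02). Of the 14 Phex UMIs of E14.5, 8 came from 1 barcode, and without the top barcode of each stage the change was -0.35.

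**Figure D4:**
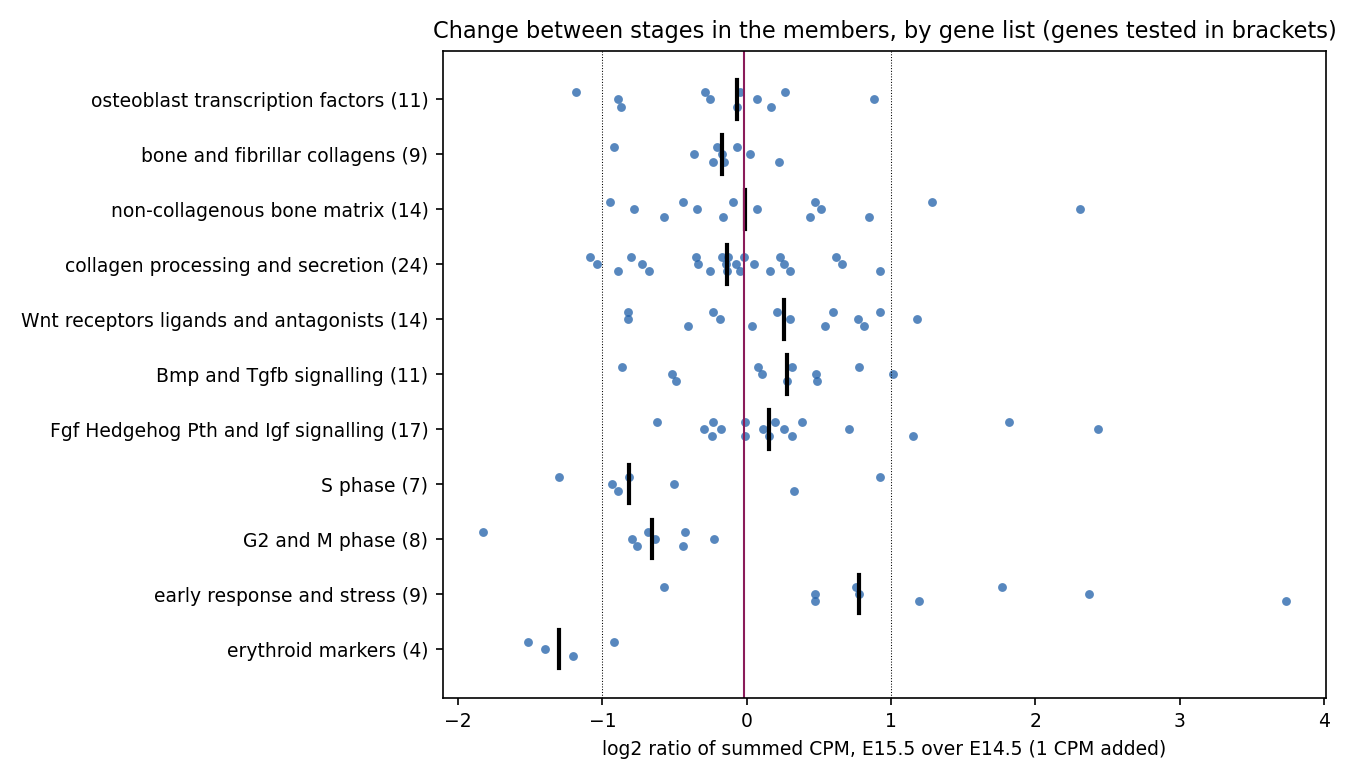
Log2 ratio of summed CPM in members, E15.5 over E14.5, with 1 point per gene compared in 11 gene lists, black bars at list medians, a purple line at the median of all genes (-0.02) and dotted lines at 2-fold. Transcription factors and collagens lie around 0, erythroid genes to the left and early response genes to the right.

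The cell cycle lists had medians below 0. Of 7 S phase genes, Mcm6, a subunit of the replication helicase, passed 2-fold downward (-1.30, -2.41 to -0.22), with a list median of -0.82. Of 8 genes of G2 and M phase, Ccnb2 (cyclin B2) passed downward (-1.83, -3.11 to -0.66), with a median of -0.66. The other genes of these lists did not pass, among them Top2a, a topoisomerase of dividing cells, with -0.23 (-0.65 to 0.21). After thinning, 32.3% and 24.6% of members had a UMI of Mki67 or Top2a, against 24.2% and 23.0% of Runx2 barcodes and 32.7% and 31.4% of that background set, and without thinning 40.0% and 40.3% of members.

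Early response and stress genes lay higher at E15.5, with 4 of 9 past 2-fold, none below, and a list median of 0.78. Fosb, an immediate early transcription factor, had 2 UMIs in 2 members and 71 in 31, a change of 3.74 (1.92 to 6.90). Ier2, another immediate early gene, had 5 UMIs in 5 members and 66 in 22, a change of 2.37 (1.11 to 4.07), and the heat shock genes Hspa1a and Hspa1b also passed. Of 4 erythroid genes, 3 passed downward, with a median of -1.30. The early response median was -0.77 when 3 rule genes were required. With 1 library per stage, such shifts cannot be told apart from differences between libraries.

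Dkk2, a secreted modulator of Wnt signals, had 19 UMIs in 11 members and 108 in 32, a change of 1.18 (0.48 to 1.97). It was the gene that passed among 14 Wnt receptors, ligands and antagonists, whose median was 0.25. Of 17 genes of the Fgf, Hedgehog, Pth and Igf pathways, Fgf10, Gli2 and Hhip passed upward, with a median of 0.16. Hhip, an inhibitor of Hedgehog ligands, had 4 and 36 UMIs, a change of 1.81 (0.37 to 3.80). For the growth factor gene Fgf10 (2.43), 31 of 42 UMIs came from 1 barcode of E15.5, and the change was 0.95 without the top barcode of each stage. Of 11 Bmp and Tgfb genes, the receptor gene Bmpr1a passed upward, with a median of 0.28.

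Of 11 osteoprogenitor and suture genes, the leptin receptor gene Lepr (1.24, -0.11 to 2.99) and Foxp1 (1.33, 0.65 to 2.10) passed upward and Foxp2 downward, with a list median of 0.31. For Foxp2 (-2.11), 44 of 73 UMIs of E14.5 came from 1 barcode, and without the top barcodes the change was -1.24. With barcodes of the exclusion genes kept in, Foxp1 had -0.16. Kitl, the ligand of the Kit receptor, had -1.91, with 11 of 14 UMIs of E14.5 in 1 barcode, and -0.24 without the top barcode of each stage. Both values moved by leaving out these barcodes. Pdpn (podoplanin), a gene of early osteocytes, changed by -1.29 (-2.60 to -0.04), and the glycolytic enzyme gene Eno1 by -1.64 (-2.61 to -0.73), with 24 UMIs in 16 members and 19 in 16.

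The largest changes over all genes came mostly from single barcodes. Of the 24 genes with the largest changes, 12 in each direction, 19 had over 50% of the UMIs of the higher stage in 1 barcode, 8 of the rises and 11 of the falls. For Dqx1, 209 of 216 UMIs of E15.5 came from 1 barcode, and for Ppp3cc, 73 of 78 of E14.5, where the change of -3.76 was -0.20 without the top barcode of each stage. Pde10a, a phosphodiesterase gene (4.11, 1.75 to 9.63, 49 UMIs in 17 members), and Pknox2, a homeobox gene (4.05, 1.69 to 9.57, 47 in 13), were spread more widely at E15.5, against 1 UMI of each at E14.5. With the barcode holding most UMIs of each gene left out of each stage, 229 genes (5.53%) passed upward both with and without it and 174 (4.2%) downward.

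The E14.5 library differs from the others in its sex-linked genes. A UMI of Uty, Kdm5d, Eif2s3y or Ddx3y, all Y-linked, was found in 30.5% of its barcodes kept, in 0% of those of E15.5 and in 0.0813% of those of E13.5. Xist had a UMI in 32.6%, 72.3% and 60.3% of the same barcodes. Among members, 15 of 40 had an Xist UMI in the E14.5 library and 57 of 67 in the E15.5 library, and none of the latter had a Y-linked UMI. Of the 40, 15 had a Y-linked UMI, 2 had both and 12 had neither.

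**Figure D5:**
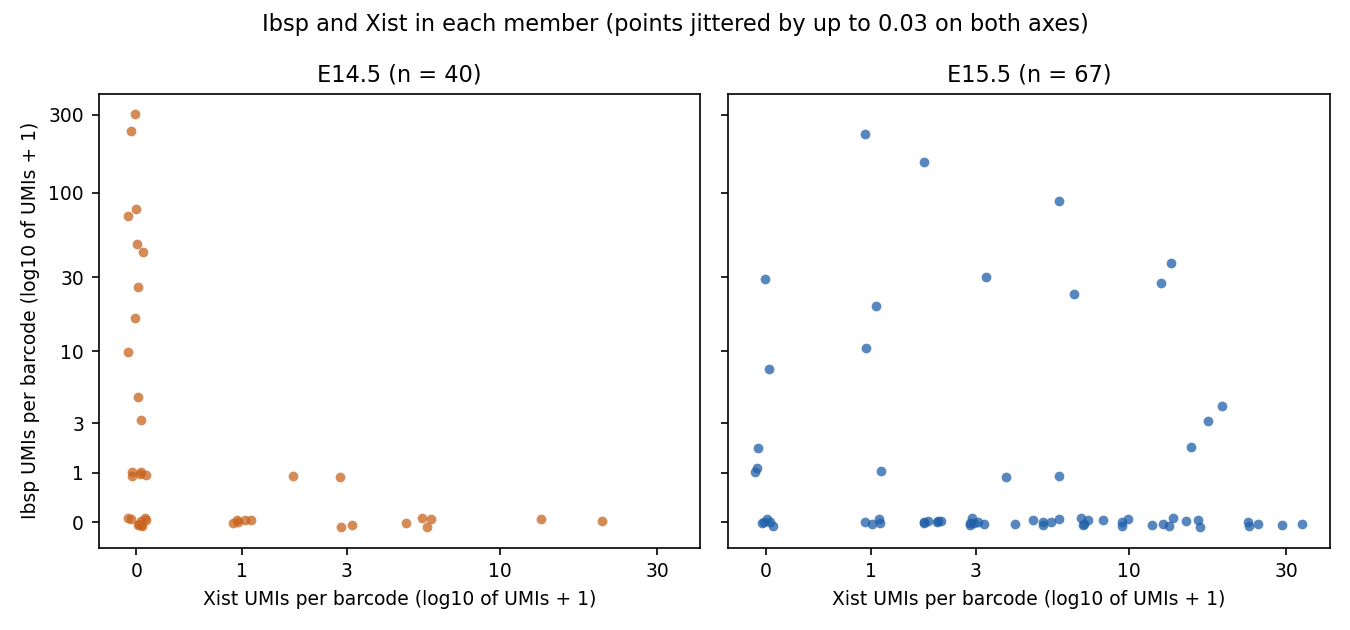
Ibsp UMIs against Xist UMIs in each member of E14.5 (40 barcodes) and E15.5 (67 barcodes), both on a scale of log10 of UMIs plus 1, with a small jitter. In the E14.5 library each member with more than 1 Ibsp UMI has no Xist UMI, while in the E15.5 library Ibsp is found in members with Xist and also without, among the latter a barcode of 28 Ibsp UMIs.

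In the E14.5 library the UMIs of Ibsp and Spp1 sat almost wholly in members without Xist, and other matrix genes were higher there. The 25 members without it held 828 of the 830 Ibsp UMIs, at 11064 CPM (10323 to 11844), and the 15 with it held 2, at 28.2 CPM (3.41 to 102). The sums were of similar size, 74839 and 70996 UMIs. The 15 members with a Y-linked UMI held 351 of the 830 Ibsp UMIs, at 4833 CPM (4340 to 5366). A member without an Xist UMI is thus not shown to be male. Without and with Xist, Spp1 had 99 and 1 UMIs, Col1a1 11932 and 1972 CPM (893 and 140 UMIs), Sparc 2352 and 634 CPM (176 and 45 UMIs) and Smpd3 1136 and 309.9 CPM. Other genes lay closer together, with Runx2 at 2686 and 3310.1 CPM, Mef2c at 1323 and 1254 and Fat3 at 989 and 1239.5.

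In the E15.5 library the 57 members with Xist held 624 of 663 Ibsp UMIs, at 1835 CPM (1693 to 1984), and the 10 without it 39, at 1641 CPM (1167 to 2244), so their intervals overlap. The 10 were shallower, with a median of 1718 UMIs against 5274, and no barcode kept of this library had a Y-linked UMI. These classes are thus not shown to differ in sex or embryo. Taking only members with Xist in both libraries turned the stage change from below to above 0 for 10 of 48 genes looked up and the other way for 0. The change then was 5.98 for Ibsp, 2.86 for Spp1, 1.49 for Col1a1, 0.89 for Col1a2, 0.98 for Smpd3 and 1.41 for Ifitm5. Pth1r (0.46), Top2a (0.72), P3h4 (0.31) and Alpl (0.0072) turned too, and the collagen list median was 0.40, beside -0.10 over all genes. The changes given above for these genes hold for the pooled members and not for those with Xist. The 48 genes were picked as large changes, list extremes and fixed bone genes, so 10 of 48 is no share of all genes. Since 3 embryos were pooled per library, the sex, the embryo and its exact age cannot be told apart.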

How the data were processed

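Each deposited matrix gives the count of UMIs for a gene in a barcode. Per the file headers, the authors ran Cell Ranger 6.1.2, and the build was mm10 per the submitters' processing notes. The gene annotation is not given in the sources used here. From these counts, 1 library per stage with tissue of 3 pooled embryos per the labels, barcodes with at least 500 detected genes were kept and the rule was applied. Counts were summed per group, scaled to CPM and compared as log2 ratios with 1 CPM added, for genes with a mean of at least 50 CPM. Rule and exclusion genes stayed out of the counts of genes. Intervals are exact (Poisson, Clopper-Pearson, conditional binomial) at 95%. PCR copies were collapsed by UMI, and the intervals cover counting error only. A count of 0 was given a limit of 3 counts. Depth per library and per group stands in the text. Named genes are those with the 12 highest and 12 lowest ratios of each of the 4 comparisons, the 2 highest and 2 lowest of each of 31 gene lists, and a fixed list of bone genes. The members, the lists and this rule were chosen with earlier results of these data known. Other genes past 2-fold in a list are named without a place in that rule. The text names part of these genes, and 1 gene of the lists is not reported here. Promoter windows came from RefSeq on GRCm38.p6. Scripts used Python 3.11.15, numpy 2.4.6, scipy 1.17.1, pandas 2.3.3 and scanpy 1.11.5 (scrublet), and edgeR 4.0.16 for TMM factors alone, and were tested on simulated data. The alternatives varied the rule, depth, doublets, weighting, added CPM, filter, scaling and the sex-linked subset.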

Additional observations from a re-analysis of the deposited data

Results flagged for a closer look

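Bone genes also appeared in barcodes outside the members. In the E14.5 library 4 barcodes under 500 detected genes passed the rest of the rule. With 2 or more rule genes but a UMI of Tyrobp, Ptprc, Pecam1 or Epcam, 19 of 394 barcodes stood out in the E14.5 library (4.82%, exact interval 2.93% to 7.43%, median 8675 UMIs) and 9 of 584 in the E15.5 library (1.54%, 0.707% to 2.91%, median 16645 UMIs). Of those of E14.5, a barcode of 28691 UMIs held 100 UMIs of Ibsp, 18 of Spp1 and 9 of Dmp1, and a barcode of 6359 UMIs held 156 of Ibsp.

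Some list genes pointed opposite ways in the libraries, with counting intervals on either side of 0 in each. The difference was not tested in any of these cases, since each side is 1 library. Against other barcodes, Foxp2 had log2 ratios of 0.47 and -0.52, a difference of -0.99. Against Runx2 barcodes the haemoglobin genes Hba-a1 (0.54 and -1.11, difference -1.65), Hba-a2 (0.65 and -1.28, difference -1.93), Hbb-bs (0.50 and -1.08, difference -1.58) and Hbb-bt (0.63 and -1.04, difference -1.67) did so together. The transcription factor gene Tcf12 had 0.42 and -0.28, a difference of -0.70. In later against earlier members, Bmp6 had 1.24 and -0.99 (difference -2.22), Foxp2 -4.33 and 1.11 (difference 5.44) and the matrix gene Postn (periostin) -0.71 and 0.37 (difference 1.08).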

How the results depend on the processing

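No paired analysis was possible because each stage has 1 library and the groups share fewer than 2 replicate numbers. Over the alternatives, 47 of the shares and counts of genes stayed within their interval or within 1.5 times and 40 did not. Of single genes and list medians, 3666 values stayed within the counting interval, 513 left it and 40 more changed sign after an interval that excluded 0, and the cause was not tested. A value whose interval included 0 is counted among the first 2 whatever its sign. The values given here for Omd, of -5.44 for Tnn, of 7.41 for Foxp2 and of -4.29 for D030025E07Rik rest on 0 UMIs in the members of E14.5, so their size comes from the added 1 CPM and the reversal is not shown beyond that count. An alternative that left under 10 UMIs of a gene over both groups gave no value for it. The counts of genes past 2-fold are given in the order between stages (490), against other barcodes (92), against Runx2 barcodes (40) and later against earlier (98). The number of genes compared also differs between the alternatives, so these counts are no shares.

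Requiring 1000 detected genes moved the E15.5 share to 3.70%. Requiring 3 rule genes gave shares of 0.0271%, 0.620% and 0.530% in order of stage and counts of 1393, 172 and 163. The stage change then was -0.77 for the early response median, 0.36 for Mef2c and 0.99 for Runx2, and the E14.5 ratio against other barcodes was -0.99 for Tnn and -4.90 for Omd, and against Runx2 barcodes -5.12 for Omd. Dropping Alpl and Phex from the rule gave shares of 0.789% (E14.5) and 0.492% (E15.5) and counts of 1433, 244 and 270. The stage change then was -0.45 for the early response median, 0.38 for Mef2c, 7.41 for Foxp2 and 1.27 for Runx2, and the E14.5 ratio against other barcodes was -5.44 for Tnn and -0.020 for Fgfr2, and against Runx2 barcodes 0.033 for Pax9 and -0.33 for Fgfr2.

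Keeping barcodes with an exclusion gene gave a share of 3.32% (E14.5) and counts of 191, 24, 7 and 38. The stage change then was 0.074 for Col1a1, 0.045 for Col1a2, -0.16 for Foxp1, 0.32 for Kitl and 0.18 for Runx2. Nrg1 of E14.5 had 0.25 against other barcodes and 0.48 against Runx2 barcodes, and Runx2 of E15.5 had 0.053 in later against earlier members. Thinning to 1500 UMIs, which leaves fewer barcodes and UMIs, gave shares of 1.37% and 1.26% and counts of 1945, 273, 254 and 503. The stage change then was -0.070 for Xist and 0.46 for Runx2, and Runx2 of E15.5 had 0.14 in later against earlier members. Against other barcodes D030025E07Rik had -4.29 and Bmp6 -0.96 in the E14.5 library and the transcription factor median was -0.40 in the E15.5 library. Against Runx2 barcodes Col2a1 of E14.5 had 0.045 and Cthrc1 of E15.5 had -0.90.

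Averaging each barcode's own CPM gave counts of 747 between stages, 69 against Runx2 barcodes and 218 later against earlier. Filters of 20 CPM (1430, 254, 109 and 324), 200 CPM (54, 22, 8 and 14) and none (6580, 2821, 1652 and 1300) moved the counts by changing which genes were compared, and at 200 CPM the non-collagenous matrix median against other barcodes was -0.10 in the E15.5 library. Leaving out the highest doublet scores gave a stage change of 0.085 for Kitl, and holding the mix of rule gene numbers gave 0.21 for Col1a2. With only members with Xist, 743 genes passed between stages, and Ibsp had 5.98, Spp1 2.86, Col1a1 1.49 and Col1a2 0.89. Leaving out the barcode with most UMIs of a gene, and leaving out the 5 deepest members of each library, were chosen after seeing the data. The latter gave a count of 91 against Runx2 barcodes, stage changes of 1.87 for Ppp3cc and 1.09 for Foxp2, and a Tnn ratio of -0.24 against other barcodes of E14.5.

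Depth sets the limits here. The 5 members of E13.5 hold 35889 UMIs, too few for comparisons by gene, and a gene without a UMI in members is limited to at most 83.6, 20.6 or 8.24 CPM in order of stage.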
